A study of Mus musculus with 6 samples.

Results

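The genes described here were 10 members of the zinc-handling system of the mouse kidney, chosen by symbol from the 24422 genes in the count tables. They were the metallothionein genes Mt1 and Mt2, the metal-responsive transcription factor gene Mtf1, the zinc importer genes Slc39a1, Slc39a4, Slc39a5 and Slc39a10, and the genes of the exporter family Slc30a1, Slc30a4 and Slc30a10. All 10 had reads, and all 10 entered the test between groups. Whole kidneys were taken at postnatal day 13 (P13) from 3 Control mice, whose genotype is labelled wild type, and 3 TfR1 knockout mice, labelled Tfr1f/f;SixCre. All 6 were of the C57BL/6 strain on a diet with 220 ppm iron. TfR1, the transferrin receptor encoded by Tfrc, carries transferrin-bound iron into cells, and the comparison asked how its loss from nephron cells changed kidney transcripts. The Cre was driven by Six2, which is active in nephron progenitors, so that collecting duct, vessels, stroma and immune cells were not targeted, and the study describes tubule cells that escaped deletion. Poly-A RNA was read in 1 library per mouse, and nothing further states that the mice of a group came from separate litters, so p-values measure only the spread between these samples.

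Zinc is held in cells by metallothioneins, small cysteine-rich proteins that bind zinc, copper and cadmium. Members of the Slc39 (ZIP) family move zinc into the cytosol, and members of the Slc30 (ZnT) family move it out, across the plasma membrane or into vesicles. Mtf1 encodes a zinc finger protein that senses free zinc and activates metallothionein genes and Slc30a1 through metal response elements, short promoter motifs. The kidney tubule is a known site of metallothionein synthesis and of metal reabsorption.

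Promoters of Mt1, Mt2 and Slc30a1 are shown because these genes are the textbook targets of Mtf1, so that their values below can be read beside the motif that links them. Each sequence holds 250 bases before to 50 bases after the transcription start, 5′ to 3′ on the gene's strand, from RefSeq on the build GRCm38.p6. Capitals mark the metal response element core, searched as TGCACNC or TGCGCNC on both strands. The windows are chr8:94178839-94179138 for Mt1, chr8:94172368-94172667 for Mt2 and chr1:191906531-191906830 for Slc30a1, all on the plus strand.
Mt1: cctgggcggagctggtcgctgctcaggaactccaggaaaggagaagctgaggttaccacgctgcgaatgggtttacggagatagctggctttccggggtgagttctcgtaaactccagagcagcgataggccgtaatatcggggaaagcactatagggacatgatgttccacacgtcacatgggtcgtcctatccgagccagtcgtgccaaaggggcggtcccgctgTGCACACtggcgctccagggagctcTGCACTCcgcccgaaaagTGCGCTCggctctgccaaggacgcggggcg
Mt2: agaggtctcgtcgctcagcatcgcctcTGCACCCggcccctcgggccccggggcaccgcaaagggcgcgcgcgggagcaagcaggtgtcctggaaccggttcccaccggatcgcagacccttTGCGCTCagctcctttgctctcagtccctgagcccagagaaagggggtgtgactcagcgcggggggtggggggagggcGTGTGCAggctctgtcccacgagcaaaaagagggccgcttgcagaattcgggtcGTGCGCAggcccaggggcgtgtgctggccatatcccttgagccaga
Slc30a1: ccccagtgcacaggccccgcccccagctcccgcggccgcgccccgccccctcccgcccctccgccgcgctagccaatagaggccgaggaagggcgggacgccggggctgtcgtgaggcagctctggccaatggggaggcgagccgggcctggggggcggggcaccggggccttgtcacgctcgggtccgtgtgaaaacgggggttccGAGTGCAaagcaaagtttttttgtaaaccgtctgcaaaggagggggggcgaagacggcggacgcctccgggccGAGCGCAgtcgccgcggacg

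Promoter windows were found for 9 of the 10 genes, and 6 of the 9 held a core. Mt1 held 3 cores, Mt2 held 4, and Slc30a1 held 2. Slc30a4 held 3, Slc30a10 held 3 of which a pair overlap, and Slc39a5 held 1 in 1 of its 2 windows. No core was found in the windows of Mtf1, Slc39a1 or Slc39a10. Of all 32851 promoter windows in the table, 25.7% held at least 1 core, 7.11% at least 2, 1.97% at least 3 and 0.517% at least 4. A match is a run of letters and not a measured binding site, and elements outside the windows were not searched.

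Read totals ran from 16591156 in Control 3 to 22898008 in Control 1, and no pair of libraries within a group agreed within counting noise. The closest pair was Control 1 and Control 2, with a chi-square per degree of freedom of 10.6. With Control 3 they had 79.8 and 84.1. Of 16509 genes tested, DESeq2 called 1277 higher and 1186 lower in the knockout at an adjusted p under 0.05, and total-count scaling moved this split to 996 higher and 1407 lower. Tfrc itself did not separate the groups, with 5534, 6485 and 3667 normalized counts in Control 1 to 3 and 6976, 4045 and 5898 in the knockout libraries (DESeq2 adjusted p = 0.853; log2 fold change 0.11, SE 0.29). Reads were counted over the whole gene, of which exons 3 and 4 were floxed, so they do not check the labels. Summed adrenal cortex markers stood at 22899 normalized counts in Control 1 and 3136 in TfR1 knockout 3 against 167 to 395 in the others. The proximal tubule markers summed to 154071 or more normalized counts in every library.

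Metal-binding genes were the most abundant members and did not separate the groups. Per kilobase of exon, Mt1 stood at rank 25 of 17545 genes in Control and at rank 19 in the knockout, and Mt2 at ranks 47 and 66. The fitted differences of both were smaller than their errors.

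Mt1, on chromosome 8 (96702989 to 96704225, plus strand, mm9), had 13995, 13858 and 11549 normalized counts in Control 1 to 3. The knockout libraries had 12056, 20144 and 12124. TfR1 knockout 2 was the highest of all 6 libraries, while the other 2 knockout libraries lay within the Control range. The log2 fold change, knockout minus Control throughout, was 0.17 (SE 0.25, DESeq2 adjusted p = 0.719, edgeR adjusted p = 0.723), with a 95% interval of 0.80- to 1.59-fold. Without TfR1 knockout 2, the log2 fold change was -0.12.

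Mt2 lies 5521 bases before Mt1 (96696518 to 96697467, plus strand). Its normalized counts were 7699, 7390 and 6584 in Control and 5933, 8662 and 5362 in the knockout. Again TfR1 knockout 2 was highest, but here the other 2 knockout libraries were below every Control library. The log2 fold change was -0.12 (SE 0.23, DESeq2 adjusted p = 0.787, edgeR adjusted p = 0.707), with an interval of 0.67- to 1.26-fold. Its sign turned without TfR1 knockout 3, to 0.018, and without both Control 1 and TfR1 knockout 3, to 0.059. The sum of the pair was 20358 ± 1940 (SD, n = 3) in Control and 21427 ± 6395 (SD, n = 3) in the knockout (two-sided exact permutation test p = 1).

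**Figure D1:**
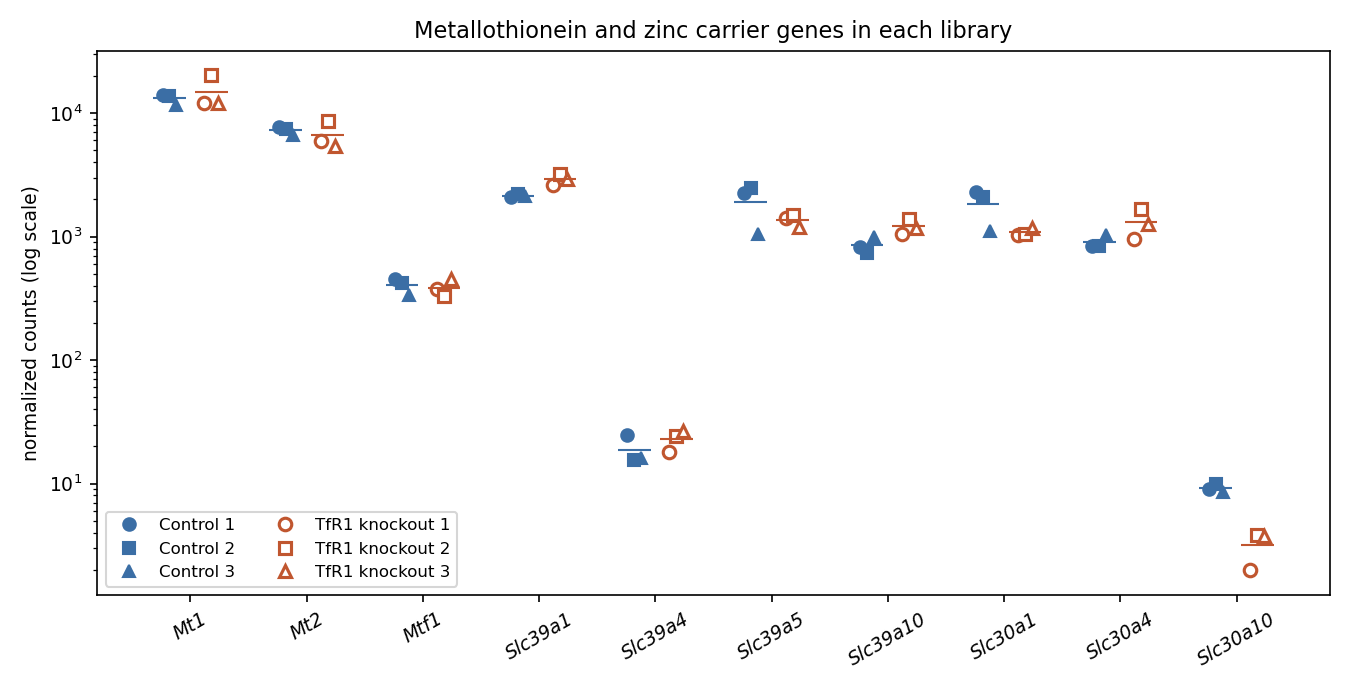
Normalized counts of the 10 genes on a log axis, with filled points for the Control and open points for the TfR1 knockout libraries and a line at each group mean. Mt1 and Mt2 sit above every other gene, TfR1 knockout 2 is highest for both, and Control 3 sits below the knockout libraries for Slc39a5 and among them for Slc30a1.

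Within the pair, the share of Mt2 did not overlap between the groups. Mt2 made up 35.5%, 34.8% and 36.3% of the Mt1 and Mt2 reads in Control 1 to 3. It made up 33.0%, 30.1% and 30.7% in the knockout libraries. Every knockout library was below every Control library, and the lowest Control interval (34.2% to 35.4%) did not reach the highest knockout interval (32.3% to 33.7%; 95% exact Clopper-Pearson, counting error only). The mean share was 35.5% ± 0.77 in Control and 31.2% ± 1.54 in the knockout (SD, n = 3 each), a difference of -4.29 percentage points. The two-sided exact permutation test gave p = 0.1, the smallest that 3 against 3 libraries allow, so the design could not pass 0.05. Of single genes tested, 16.9% lay above and 16.9% below Control without overlap. Shares of other gene pairs were not computed, so how often such a share separates the groups is not known. The difference ran from -5.16 to -3.70 points with any single library left out and was -4.02 without Control 1 and TfR1 knockout 3. As a ratio, log2 of Mt2 over Mt1 was -0.86 ± 0.05 in Control and -1.14 ± 0.10 in the knockout. None of the 100-base stretches of the Mt1 or Mt2 transcripts matched exactly a protein-coding transcript of another gene. Pseudogenes, noncoding transcripts and inexact matches were not searched.

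**Figure D2:**
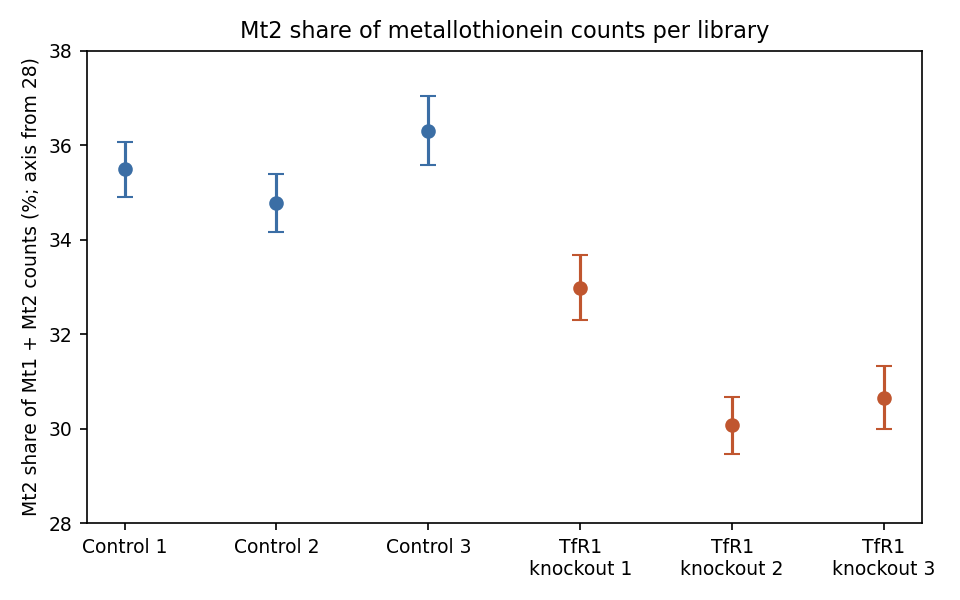
Share of Mt2 in the Mt1 plus Mt2 reads of each library, in percent on an axis that starts at 28, with 95% exact binomial intervals. The 3 Control libraries lie between 34.8% and 36.3% and the 3 knockout libraries between 30.1% and 33.0%.

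Metallothionein genes are also known as targets of glucocorticoids, and a list of 10 glucocorticoid-response genes was read beside them. Of these, 9 were called higher by DESeq2 and 5 by edgeR, against 7.74% and 3.22% of all genes. The median log2 fold change was 1.57 against 0.0071 over all genes tested. The remaining gene, Nr3c1, was below Control without overlap (log2 fold change -0.33, SE 0.15, DESeq2 adjusted p = 0.132, edgeR adjusted p = 0.145). The summed level of the 10 genes was 19329 to 25085 normalized counts in Control and 40058, 93799 and 42986 in TfR1 knockout 1, 2 and 3. TfR1 knockout 2, the library with the most Mt1 and Mt2, thus also had the highest sum. In TfR1 knockout 1 and 3 the list sum was above Control as well. Their Mt1 plus Mt2 levels, 17988 and 17486, were below every Control library (18133 to 21695). The part of this list, of adrenal transcripts and of cell makeup in the metallothionein values was not tested.

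Mtf1, the zinc sensor itself (chromosome 4, 124479348 to 124527044, plus strand), ranged from 330 to 457 normalized counts. It had 457, 422 and 335 in Control and 376, 330 and 451 in the knockout. The 2 groups overlapped, and the log2 fold change was -0.07 (SE 0.23, DESeq2 adjusted p = 0.882), with an interval of 0.70- to 1.30-fold. The sign turned without Control 1 (0.024) and without TfR1 knockout 2 (0.035). A stretch of 316 exonic bases overlaps a gene on the opposite strand, and the library kit does not mark strand, so reads there cannot be told apart.

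Among the importers, Slc39a1 was the only member called by DESeq2, and it was higher in the knockout. Slc39a10 (log2 fold change 0.51), Slc39a5 (-0.49) and Slc39a4 (0.28) did not pass. In all, DESeq2 called 1 of the 10 members higher and 0 lower, against 7.74% of all genes called higher and 7.18% called lower. With edgeR, 0 of the 9 members kept by its filter were called in either direction, against 3.22% of genes higher and 2.80% lower, and limma with voom also called 0. At an unadjusted p under 0.05, DESeq2 and edgeR each found 3 members higher (Slc39a1, Slc39a10 and Slc30a4) and 1 lower (Slc30a1), and voom 2 higher and 1 lower. The groups did not overlap for 2 members above Control and 1 below, against 16.9% of genes above and 16.9% below. The median log2 fold change of the 10 was 0.05 against 0.0071 over all genes tested.

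Slc39a1, a widely expressed plasma membrane importer (chromosome 3, 90052094 to 90057534, plus strand), had 2077, 2201 and 2122 normalized counts in Control. It had 2613, 3218 and 2937 in the knockout. Every knockout library was above every Control library, and the Control libraries lay close together (2133 ± 62.6 against 2923 ± 302, SD, n = 3 each). Its log2 fold change was 0.45 (SE 0.15, DESeq2 adjusted p = 0.0229), or 1.37-fold with an interval of 1.12- to 1.68-fold. The call was not made by edgeR (adjusted p = 0.0843), by voom (0.0866) or with total-count scaling (DESeq2, 0.0558). Leaving out a library ended it for Control 1 (DESeq2 adjusted p = 0.243), Control 2 (0.166), Control 3 (0.0643), TfR1 knockout 2 (0.0882) and TfR1 knockout 3 (0.157), and the log2 fold change stayed between 0.38 and 0.53. Macrophage markers were also higher, with 8 of 10 called by DESeq2 and 6 by edgeR, against 7.74% and 3.22% of all genes. They summed to 2648, 2855 and 4354 normalized counts in Control 1 to 3 and to 9889, 7873 and 8255 in the knockout libraries. Within the knockout this sum was lowest in TfR1 knockout 2, where Slc39a1 was highest. Collecting duct markers summed to 20671, 20666 and 10491 in Control. In the knockout libraries they summed to 36995, 65458 and 38537, highest in TfR1 knockout 2. Aqp2 alone gave 17805, 50719 and 23564 of these counts, so the rank of TfR1 knockout 2 rests on that gene. The part of either cell type in the Slc39a1 value was not tested.

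Slc39a10, an importer that the kidney also expresses (chromosome 1, 46864389 to 46910891, minus strand), had 818, 741 and 984 normalized counts in Control. The knockout libraries had 1058, 1395 and 1165. The groups did not overlap, though Control 3 and TfR1 knockout 1 lay near each other. DESeq2 gave a log2 fold change of 0.51 (SE 0.20, DESeq2 adjusted p = 0.070, edgeR adjusted p = 0.117). It passed without Control 3 (0.63, DESeq2 adjusted p = 0.0221) and without TfR1 knockout 1 (0.60, DESeq2 adjusted p = 0.0441).

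Slc39a5, an importer of the basolateral membrane in epithelia (chromosome 10, 127832990 to 127838280, minus strand), had 2256, 2459 and 1046 normalized counts in Control. It had 1419, 1489 and 1193 in the knockout. Control 1 and Control 2 were above every knockout library, and Control 3 was below all of them. Its log2 fold change was -0.49 (SE 0.33, DESeq2 adjusted p = 0.337), and without Control 3 it was -0.79 (DESeq2 adjusted p = 4.01e-04). That fit left Control 1 and Control 2, the closest pair of libraries, as the only Controls, so its p-value rests on a narrower Control spread.

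Slc39a4, the importer that takes up dietary zinc in the gut (chromosome 15, 76442815 to 76447322, minus strand), had 25, 15 and 16 normalized counts in Control and 18, 24 and 26 in the knockout. Its log2 fold change of 0.28 had an SE of 0.51 (DESeq2 adjusted p = 0.775) and an interval of 0.61- to 2.43-fold.

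**Figure D3:**
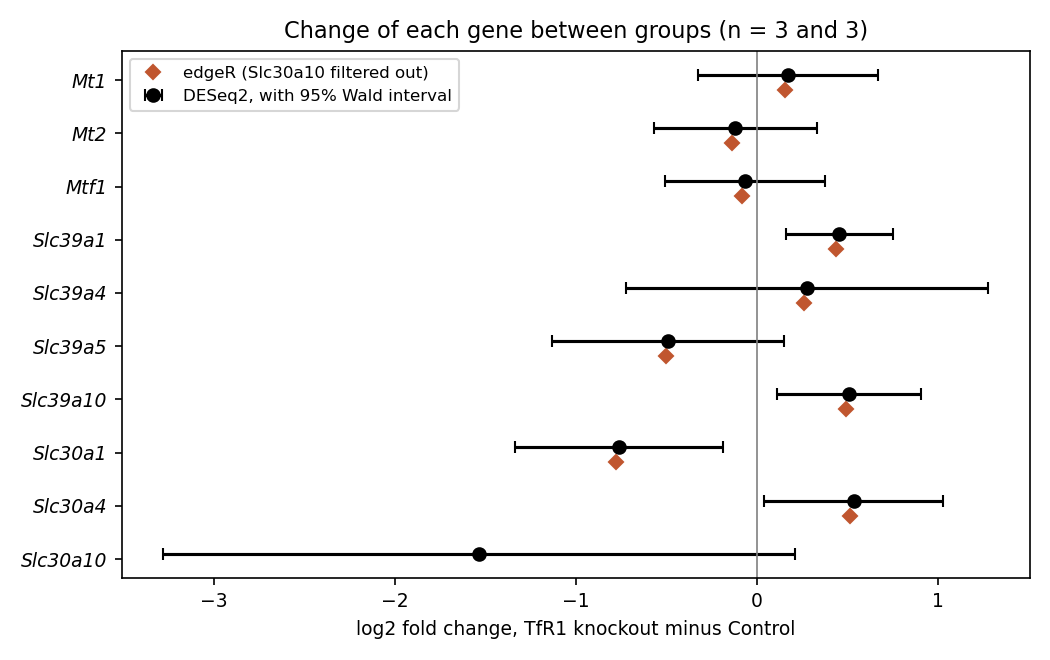
Log2 fold change of each gene, TfR1 knockout minus Control, from DESeq2 with 95% Wald intervals (circles) and from edgeR (diamonds; Slc30a10 was removed by its filter). The intervals of Slc39a1, Slc39a10, Slc30a1 and Slc30a4 leave out 0 before adjustment, and Slc39a1 alone passed the DESeq2 adjusted threshold.

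The 3 exporter genes had log2 fold changes of both signs, at -0.76 for Slc30a1, 0.53 for Slc30a4 and -1.54 for Slc30a10. None of the 3 passed the DESeq2 threshold with all 6 libraries, and 1 of them, Slc30a1, had an unadjusted p under 0.05 below Control and 1, Slc30a4, above it.

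Slc30a1, the plasma membrane zinc exporter and an Mtf1 target like Mt1 and Mt2 (chromosome 1, 193730646 to 193737126, plus strand), had 2294, 2095 and 1103 normalized counts in Control. The knockout libraries had 1021, 1044 and 1169. The 3 knockout libraries lay close together, and Control 3 sat among them, below TfR1 knockout 3. The log2 fold change was -0.76 (SE 0.29, DESeq2 adjusted p = 0.0582, edgeR adjusted p = 0.118), or 0.59-fold with an interval of 0.40- to 0.88-fold. It passed with upper-quartile scaling (-0.80, DESeq2 adjusted p = 0.0341) and total-count scaling (-0.85, DESeq2 adjusted p = 0.0274). Without Control 3 it was -1.03 (DESeq2 adjusted p = 4.42e-08), so that the call turned on this library and on the scaling. An overlap of 468 exonic bases with a gene on the opposite strand leaves part of its reads uncertain.

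Control 3 stood apart from the other Control libraries in its tubule and stroma markers as well. The 16 proximal tubule markers summed to 247426, 259358 and 154071 normalized counts in Control 1 to 3 and to 197415, 294639 and 171110 in the knockout. The 6 thick ascending limb markers summed to 88556, 96916 and 47270 in Control and to 18163, 25853 and 14461 in the knockout. Of the 6, DESeq2 called 5 lower and edgeR 3, against 7.18% and 2.80% of all genes. The 7 stroma markers summed to 138433 in Control 3 against 69911 and 67298 in Control 1 and 2. Slc30a1 and Slc39a5 were thus low in the Control library with the lowest tubule sums, and the part of cell makeup in their values was not tested. In whole-kidney RNA, fewer cells of a type and less RNA per cell cannot be told apart.

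**Figure D4:**
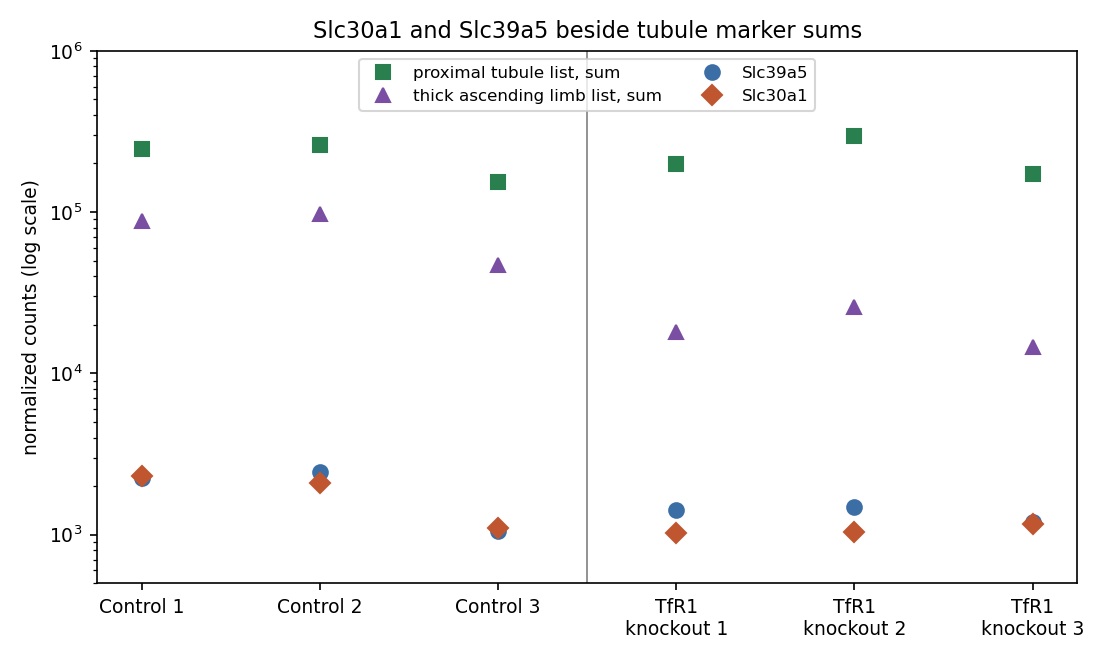
Normalized counts (log axis) of Slc30a1 and Slc39a5 beside the summed proximal tubule and thick ascending limb markers in each library. In Control 3, Slc30a1 (1103), Slc39a5 (1046) and both sums are lower than in Control 1 and Control 2.

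Slc30a4, a carrier that loads zinc into vesicles (chromosome 2, 122506969 to 122528399, minus strand), had 836, 840 and 1020 normalized counts in Control. It had 957, 1686 and 1261 in the knockout. TfR1 knockout 1 lay inside the Control range and the other 2 above it. The log2 fold change was 0.53 (SE 0.25, DESeq2 adjusted p = 0.146, edgeR adjusted p = 0.179), and without TfR1 knockout 1 it was 0.71 (DESeq2 adjusted p = 0.0162). With a gene on the opposite strand it shares 130 exonic bases.

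Slc30a10, a member of the exporter family best known for carrying manganese (chromosome 1, 187278727 to 187292641, plus strand), had 11, 11 and 8 reads in Control. It had 2, 3 and 4 reads in the knockout. The groups did not overlap, but the level was near the floor of 3 reads per library in every knockout sample. The fitted log2 fold change was -1.54 (SE 0.89, DESeq2 adjusted p = 0.255). Summed over libraries, 30 reads stood against 9, a depth-adjusted ratio of 0.342 (95% interval 0.143 to 0.739, counting error only). A stretch of 533 exonic bases overlaps a gene on the opposite strand.

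**Figure D5:**
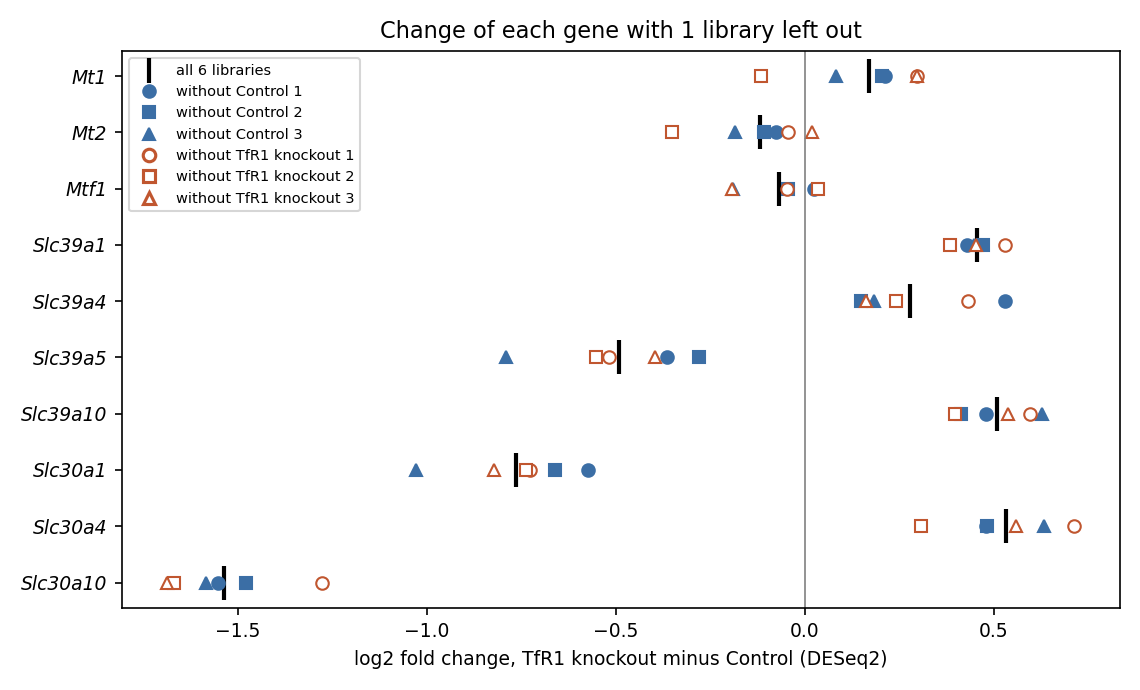
DESeq2 log2 fold change of each gene with all 6 libraries (black bar) and with each library left out (filled, Control; open, TfR1 knockout). Mt1, Mt2 and Mtf1 cross 0, and leaving out Control 3 moves Slc30a1 to -1.03 and Slc39a5 to -0.79.

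Placed in order of level per kilobase in Control, Mt1 (median 18403 normalized counts per kilobase) was followed by Mt2 (13291), and these ranges did not overlap. Slc39a5 (1054) and Slc39a1 (897) came next and overlapped each other. Slc30a1 (399) stood above Slc30a4 (153) and Slc39a10 (137), which overlapped, and then came Mtf1 (50.8), Slc39a4 (7.13) and Slc30a10 (1.55). In the knockout, Slc39a1 (median 1242) no longer overlapped Slc39a5 (663), and Slc30a1 (199) overlapped Slc30a4 (230) and Slc39a10 (196).

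Across the 6 libraries, the 5 genes whose log2 levels were most like that of Mt1 were Cmpk1 (Pearson r = 0.996), Hcfc2 (0.995), Glyr1 (0.991), 4933431E20Rik (0.991) and Txn1 (0.990), of 12106 genes compared (mean level 100 normalized counts or more). For the sum of Mt1 and Mt2, they were Itfg1 (r = 0.992), Tmem37 (0.991), Clpx (0.988), Gabarapl1 (0.985) and Dcbld2 (0.984). These are the highest of many values over 6 points that share libraries and depth, and they are given as a description. All 10 were highest in TfR1 knockout 2, as Mt1 and Mt2 were, which follows from choosing them by likeness to these levels.

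The remaining zinc carriers and metallothioneins formed a list of 19 genes, of which 16 could be tested. DESeq2 called 2 lower and 0 higher, and edgeR and voom called the same counts, while each found 1 gene higher at an unadjusted p under 0.05. Over all genes tested, DESeq2 called 7.18% lower and edgeR 2.80%. The median log2 fold change of the 16 was -0.04. Mt3, the brain-type metallothionein 18469 bases before Mt2, was low throughout, with 44, 29 and 15 reads in Control and 5, 4 and 5 in the knockout. The 3 knockout libraries were below every Control library (log2 fold change -2.42, SE 0.68, DESeq2 adjusted p = 0.00541, edgeR adjusted p = 0.0290). Slc39a8, an importer of zinc, iron and manganese, had 1404, 1399 and 1087 normalized counts in Control and 451, 710 and 604 in the knockout. Its log2 fold change was -1.14 (SE 0.24, DESeq2 adjusted p = 4.36e-05, edgeR adjusted p = 0.0204). The study reports its product ZIP8 as increased in ureteric bud and proximal tubule, from images. Whole-kidney RNA at P13 is an unlike measure, and the age of the imaged kidneys is not stated with the images. Slc39a14, which carries zinc and non-transferrin-bound iron, had 479, 474 and 302 in Control and 765, 537 and 590 in the knockout, without overlap (log2 fold change 0.59, SE 0.26, DESeq2 adjusted p = 0.118). From images too, the study reports the product of Slc39a14, ZIP14, as raised in S-shaped bodies and in proximal tubules, and the same limits hold. Neither Mt3 nor Slc39a8 was called when Control 1 and TfR1 knockout 3, the libraries with the most adrenal transcripts, were both left out.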

How the data were processed

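Poly-A RNA of 6 whole kidneys was sequenced single-end. Per the submitters' processing notes and the study's methods, reads were called with CASAVA 1.8.2, trimmed with Trimmomatic, mapped to mm9 with TopHat2 2.0.11 and counted per gene with HTSeq; the annotation and strand setting are not given in the sources used here. The authors deposited raw counts of uniquely mapped reads, and 0 further columns of per-sample values were left unused. TopHat2 places spliced reads, and genes that overlap on opposite strands can share reads because the kit does not mark strand.

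Groups were taken from the genotype labels. DESeq2 1.42.0 (R 4.3.3; median-ratio size factors, Wald test, independent filtering at 0.05, with a mean-count cutoff of 3.508) compared TfR1 knockout with Control over all genes, with Benjamini-Hochberg adjustment. Calls required an adjusted p under 0.05. edgeR 4.0.16 (quasi-likelihood, TMM) and limma 3.58.1 with voom, both after the default expression filter of edgeR, were alternatives. Further alternatives, with DESeq2, were other scalings and filters, among them at least 10 reads in 3 libraries. A 2-fold minimum, a replicate block and each library left out were also used. Leaving out Control 1 and TfR1 knockout 3 was chosen after seeing the data. The Mt2 share was tested with an exact permutation test over all 20 regroupings of the libraries. Levels per kilobase used exon lengths of the GENCODE annotation on mm9. Promoters were read from RefSeq on GRCm38.p6, and no coordinates were moved between builds. The scripts were tested on simulated data. Libraries with the same replicate number were not treated as pairs.

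The members and lists were chosen with earlier results of these data known. Named were all members, called genes of the other zinc carriers and of the copper list, Slc39a8 and Slc39a14, and the 5 genes most like Mt1 and most like the sum of Mt1 and Mt2. Tfrc, Nr3c1, Commd1, Sco2, Ehd3 and Aqp2 were named in addition. Intervals from counts and the floor of 3 reads cover counting error only. With 3 libraries a group and 16591156 to 22898008 reads each, precision of abundant members was set by the spread between libraries, and that of Slc39a4 and Slc30a10 by counting.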

Additional observations from a re-analysis of the deposited data

How the results depend on the processing

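Of 157 recomputed values for single members, 135 kept their direction and side of the threshold, 10 lost the call, 7 gained it and 5 turned sign. All 10 losses were of Slc39a1, the only member called with the main settings. The other members had no call to lose. The count of members called higher, 1 with the main DESeq2 settings, was 0 by edgeR, by voom, with total-count scaling, at a 2-fold minimum, with a replicate block and without both Control 1 and TfR1 knockout 3. It ran from 0 to 3 with 1 library left out, the 3 coming without TfR1 knockout 1. The count called lower was 1 instead of 0 with upper-quartile scaling and with total-count scaling, and ran from 0 to 2 with 1 library left out, the 2 (Slc30a1 and Slc39a5) coming without Control 3. With the replicate block, Slc39a1 had a log2 fold change of 0.45 and a DESeq2 adjusted p of 0.132, and 1085 genes were called higher and 1087 lower over all genes. Correlations of same-numbered libraries were -0.038, 0.055 and 0.090, so the numbers were not taken as pairs. Among the other zinc carriers, the count called lower was 1 with the block, 0 without Control 1 and TfR1 knockout 3, and 1 to 2 with 1 library left out (1 without Control 1 or Control 2). Over all genes, edgeR called 493 higher and 428 lower, voom 485 and 456, and the 2-fold minimum left 728 and 736. Without Control 1 and TfR1 knockout 3 the counts were 421 and 260. With 1 library left out they ran from 664 (without Control 1) to 1531 higher and from 575 (without Control 1) to 1674 lower, both highest without TfR1 knockout 1. The lower count was 659 without TfR1 knockout 3, and without Control 2 the counts were 705 and 627. Sign turned for Mt1 without TfR1 knockout 2 (range -0.12 to 0.30), for Mt2 without TfR1 knockout 3 (range -0.35 to 0.018) and without Control 1 and TfR1 knockout 3 (0.059), and for Mtf1 without Control 1 or TfR1 knockout 2 (range -0.19 to 0.035). Settings with fewer libraries have fewer samples to test, and for the other changes the cause was not tested. Depth limited Slc30a10 and Slc39a4, which had at most 11 and 30 reads in a library.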

Other observations

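Copper is bound by the same metallothioneins, and of 12 copper-handling genes 11 could be tested. DESeq2 called 2 higher and 0 lower, with 1 gene (Commd1) lower at an unadjusted p under 0.05, and edgeR called 1 higher and 0 lower. Over all genes tested, DESeq2 called 7.74% higher and edgeR 3.22%. Cp, which encodes the copper ferroxidase ceruloplasmin, had 600, 492 and 452 normalized counts in Control and 1138, 2340 and 1304 in the knockout (log2 fold change 1.63, SE 0.31, DESeq2 adjusted p = 6.93e-06, edgeR adjusted p = 0.0227). Atp7a, a copper-exporting ATPase, had 1176, 1156 and 1005 in Control and 1449, 2227 and 1530 in the knockout (log2 fold change 0.64, SE 0.23, DESeq2 adjusted p = 0.0353, edgeR adjusted p = 0.0885). The groups did not overlap for either gene, and TfR1 knockout 2 was highest for both. Sco2 had 0 reads in every library.

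Marker lists of the kidney's cell types were read beside these genes. Over all genes tested, DESeq2 called 7.74% higher and 7.18% lower, and edgeR 3.22% higher and 2.80% lower. Of 16 proximal tubule markers, DESeq2 called 1 higher and 5 lower, and edgeR 1 higher and 3 lower. For the distal convoluted tubule, both tools called 3 of 4 markers lower and 0 higher. Of 8 collecting duct markers, DESeq2 called 4 higher and edgeR 1. Both tools called 1 of 6 podocyte markers higher. Of 6 endothelial markers, 0 were called by DESeq2, edgeR or voom, and at an unadjusted p under 0.05 DESeq2 and edgeR found 0 and voom found 1 higher (Ehd3, whose groups did not overlap). Of 7 stroma markers, DESeq2 called 2 lower and edgeR 0, with 3 and 2 lower at an unadjusted p under 0.05. Of 6 adipose markers, DESeq2 called 1 higher and 1 lower, and edgeR 1 lower. DESeq2 tested 5 of 7 erythroid markers and 1 of 6 adrenal markers and called 0, and for both lists DESeq2, edgeR and voom found 0 at an unadjusted p under 0.05.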
